A study of Mus musculus with 4 samples.

Results

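Chemokines are small secreted proteins that guide migrating cells, and chemokine receptors are the membrane proteins that read them. All rows of the count matrix whose gene symbol begins with Ccl, Cxcl, Ccr or Cxcr followed by a digit were taken, which gave 59 of 32285 rows. These rows carry 53 symbols, and 42 rows are ligands and 17 are receptors. Of the 59, 33 had at least 20 unique molecular identifiers (UMIs, counts of captured RNA molecules) and are described by their values. Another 9 had 1 to 19 UMIs and 17 had 0. Of the 17 rows at 0, 8 share a symbol with another row.

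The matrix comes from Visium slides, whose barcoded spots each capture RNA from a small area of tissue, often from several cells of different types. Coronal fresh-frozen sections of the olfactory bulb, 10 micrometers thick, came from 1 mutant mouse and 1 control mouse aged 5 months, on 2 capture areas per mouse. The mutant mouse is labelled with VEGF blockade at E13.5, and its 2 capture areas hold 2 sections each. The control mouse gave 2 sections on 1 capture area and 1 section on the other, and its label names no treatment. The protocol, which is written in the same words for both mice, describes a transgenic soluble form of VEGFR1, a decoy receptor that binds VEGF, made in the brain under the tetracycline-regulated Camk2a-tTA driver. Whether the control mouse carried either transgene was not given in the sources used here. With 1 mouse per genotype, the areas of a mouse are repeats of that mouse and not biological replicates.

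The spots carry library numbers 1 to 4, and no label ties a number to a capture area or a mouse. Values are therefore given for each library by its number, no library stands for a genotype, and no comparison of the mutant with the control mouse was made. Spots with at least 500 UMIs numbered 1662, 715, 1296 and 943 in libraries 1 to 4, with 13304973, 5223890, 12533691 and 9533952 UMIs and medians of 7898.5, 7186, 9043 and 9829 UMIs per spot. Of 2796 distinct spot barcodes, 1460 occurred in 2 or more libraries and 46 in all 4, as barcodes of this platform mark fixed slide positions and not cells. The mitral and tufted cell marker Cdhr1 was present in every library, at 775, 676, 348 and 319 UMIs per 1000000 UMIs of the library (CPM). The libraries also differed in their tissue: Obp1a, which encodes an odorant-binding protein of nasal glands, stood at 366, 4.59, 1.197 and 1.78 CPM, and Nrgn, a marker of forebrain excitatory neurons, at 112, 151, 1182 and 1239 CPM. All intervals below are 95% intervals for counting error only, and there are no replicates, no SD and no p-values. In spots that mix cells, fewer cells of a type and less RNA per cell cannot be told apart.

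As background, chemokines are sorted by the spacing of the first cysteines of the mature protein. CC chemokines (Ccl) have them side by side, and CXC chemokines (Cxcl) have another residue between them. Inflammatory chemokines are induced in macrophages, glia and vessels and recruit leukocytes, and homeostatic ones are made constantly and place cells. In the olfactory bulb, Cxcl12 and its receptor Cxcr4 are known for guiding migrating neural cells and for signals from the meninges.

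The spacing is shown for 6 ligands on which the results turn, as 30 bases of coding sequence read from GENCODE M21 transcripts of the GRCm38 build, with the cysteine codons in capitals. The first 3 are CC chemokines that were high in a small set of spots (Ccl2 and Ccl8, of a group of ligands encoded near each other on chromosome 11, and Ccl6). The last 3 are CXC chemokines that were concentrated in very few spots (Cxcl10), moderately localised (Cxcl12) or spread almost evenly (Cxcl14).
Ccl2: ccactcaccTGCTGCtactcattcaccagc
Ccl8: ccagtcaccTGCTGCtttcatgtactaaag
Ccl6: tcttcagacTGCTGCttctcttatgccaca
Cxcl10: acggtccgcTGCaacTGCatccatatcgat
Cxcl12: agctaccgaTGCcccTGCcggttcttcgag
Cxcl14: gggtccaagTGTaagTGTtcccggaagggg
A search for adjacent codons in Ccl genes, and for codons with 1 codon between them in Cxcl genes, found a match in each of the 25 ligands with at least 20 UMIs. The spacing searched was set by the gene name, so this is no test of the families. Whether each match lies in the mature protein was not tested, and that of Ccl24 began early, at codon 19. Of the 33 ligands and receptors with at least 20 UMIs, 13 lie on chromosome 11, 6 on chromosome 5 and 4 on chromosome 9 in that annotation.

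Ligand RNA far outweighed receptor RNA, with 16561 UMIs of ligands and 784 UMIs of receptors in the spots kept. The 4 most abundant ligands, Cxcl14, Ccl27a, Cxcl12 and Ccl19, held 12155 UMIs, or 70.1% of all chemokine and receptor UMIs. Together the 59 rows made up 0.0286%, 0.0294%, 0.0546% and 0.0542% of the UMIs in libraries 1 to 4. Summed by family, Ccl genes reached 112, 125, 292 and 283 CPM and Cxcl genes 163, 157, 226 and 235 CPM. Ccr receptors reached 3.46, 3.45, 16.2 and 12.3 CPM and Cxcr receptors 6.84, 8.61, 12.1 and 11.7 CPM. Each family was thus higher in libraries 3 and 4 than in libraries 1 and 2, least so for Cxcl genes, where Cxcl14 dominates.

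Between libraries, 27 of 33 chemokines and receptors differed by more than 2-fold from the highest to the lowest library, against 23.4% of all 16011 genes with at least 20 UMIs. The 27 were 20 of 25 ligands and 7 of 8 receptors. Among those with at least 100 UMIs, whose ratios are less noisy, 15 of 20 differed by more than 2-fold, against 14.7% of all genes at that depth. With the lower bound of the ratio required to pass 2, 21 of 33 remained above it, against 7.88% of all genes, and 13 of 20 did with at least 100 UMIs, against 7.09%. The median ratio was 6.77 over the 33 and 1.37 over all genes. The library with the highest level was library 3 for 20 of the 33 (26.3% of all genes) and library 4 for 10 (25.8% of all genes). It was library 2 for 3 (27.3% of all genes) and library 1 for 0 (20.6% of all genes).

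**Figure D1:**
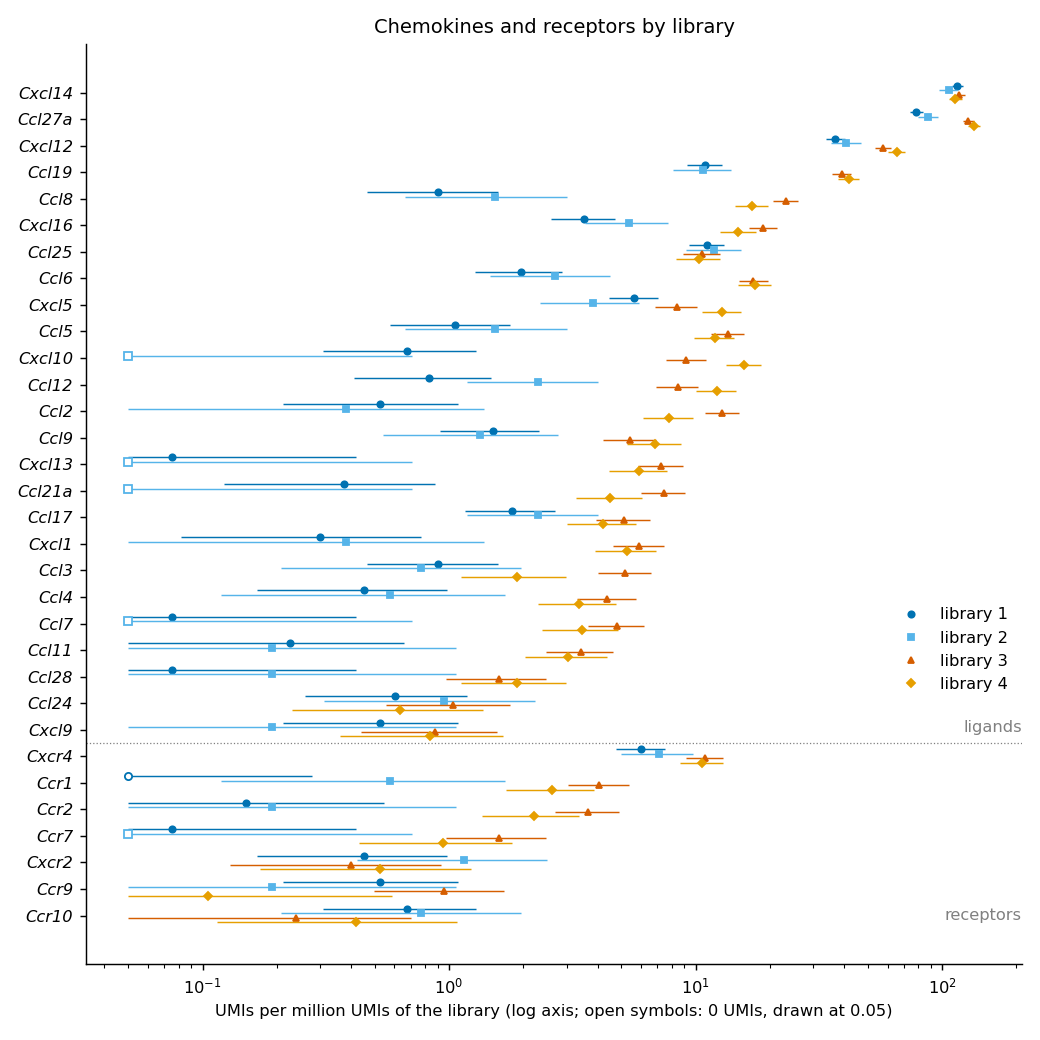
Level of 32 chemokines and receptors with at least 20 UMIs in the 4 libraries, in UMIs per 1000000 UMIs on a log axis. Symbols are libraries, bars are 95% exact Poisson intervals, open symbols are 0 UMIs drawn at 0.05, and the dotted line separates ligands from receptors. Cxcl14 and Ccl25 overlap in the 4 libraries, whereas Ccl8, Ccl2 and Cxcl10 are separated by more than 10-fold.

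The homeostatic ligands came first in level. Cxcl14 (ENSMUSG00000021508), an evolutionarily conserved chemokine of epithelia and brain, stood at 115, 106, 117 and 113 CPM in libraries 1 to 4. No library stood apart, and the ratio of highest to lowest was 1.10 (1.0002 to 1.22). Ccl25, a ligand of Ccr9 known from thymus and gut, was equally even at 11.1, 11.9, 10.6 and 10.3 CPM, a ratio of 1.15 (0.826 to 1.60). Its exons overlap those of Elavl1 on the opposite strand, and whether counting used strand was not given in the sources used here.

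Ccl27a (ENSMUSG00000073888), known as a skin chemokine and ligand of Ccr10, stood at 78.5, 87.7, 128 and 135 CPM. Library 4 was highest and library 1 lowest, with a ratio of 1.71 (1.58 to 1.86). The exons of Ccl27a overlap those of Il11ra1 on the opposite strand, so that part of these UMIs may belong to that gene if strand was not used. Cxcl12 (ENSMUSG00000061353), the ligand of Cxcr4 and of the scavenging receptor Ackr3, was measured at 36.8, 40.8, 57.4 and 65.6 CPM. The ratio of library 4 to library 1 was 1.78 (1.58 to 2.01). Ccl19 (ENSMUSG00000071005), a ligand of Ccr7 known from lymphoid stroma, reached 10.9, 10.7, 39.1 and 41.7 CPM, a ratio of 3.89 (2.94 to 5.25), with libraries 1 and 2 alike and libraries 3 and 4 alike.

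The inflammatory ligands were rare in libraries 1 and 2 and differed most. Ccl8, a monocyte chemoattractant of the Ccl2 group, was measured at 0.902, 1.53, 23.2 and 16.9 CPM, a ratio of 25.7 (14.5 to 50.4). Ccl2, the principal ligand of Ccr2, stood at 0.526, 0.383, 12.8 and 7.76 CPM. Its ratio of 33.6 (9.14 to 279) rests on 2 UMIs in library 2. Ccl12, another Ccr2 ligand of the mouse, lay at 0.827, 2.30, 8.46 and 12.2 CPM, a ratio of 14.7 (7.93 to 30.3). In all 3, the levels of libraries 3 and 4 lay above those of libraries 1 and 2 without overlap of their intervals.

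Ccl5, a chemokine made by activated T cells and macrophages, reached 1.05, 1.53, 13.5 and 11.96 CPM, a ratio of 12.8 (7.43 to 23.9). Ccl6, a rodent ligand of Ccr1, stood at 1.95, 2.68, 17.2 and 17.4 CPM, a ratio of 8.91 (5.87 to 14.0). Its relative Ccl9 was measured at 1.503, 1.34, 5.43 and 6.82 CPM. Libraries 3 and 4 were close to each other for all 3 of these genes. Of 8 listed T cell genes, 2 had at least 20 UMIs, among them Trac with 62, and both differed by more than 2-fold between libraries. Cd3d and Cd3e had 11 UMIs each in all libraries together. The part of T cells in the level of Ccl5 was not tested.

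Cxcl10 (ENSMUSG00000034855), an interferon-induced ligand of Cxcr3, was measured at 0.676, 0, 9.18 and 15.7 CPM. Against a floor of 3 UMIs in library 2, which had none, library 4 was at least 27.4-fold higher. Cxcl13, the B cell chemoattractant, stood at 0.0752, 0, 7.26 and 5.87 CPM, with library 3 at least 12.6-fold above that floor. Ccl21a, a Ccr7 ligand of lymphatic vessels and lymphoid stroma, lay at 0.376, 0, 7.42 and 4.51 CPM, at least 12.9-fold. These 3 ligands were close to absent in libraries 1 and 2, where they had at most 9 UMIs each. The coding sequence of Ccl21b, a row at 0 UMIs, is 99.5% identical to that of Ccl21a, so that the counts of Ccl21a cannot be told apart from those of its copy.

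The neutrophil-attracting ligands of Cxcr2 differed from each other in pattern. Cxcl1 reached 0.301, 0.383, 5.90 and 5.24 CPM, a ratio of 19.6 (7.35 to 74.0). Cxcl5 was measured at 5.64, 3.83, 8.38 and 12.8 CPM, a ratio of 3.34 (2.07 to 5.66), and so was present in every library. Cxcl16, a membrane-bound ligand of Cxcr6, stood at 3.53, 5.36, 18.8 and 14.9 CPM, a ratio of 5.33 (3.88 to 7.45). Its exons overlap those of Zmynd15 on the opposite strand. The neutrophil markers S100a8 and S100a9 were highest in library 3 and near 0 in libraries 1 and 2, unlike Cxcl5. S100a8 stood at 1.05, 0.383, 43.2 and 27.4 CPM and S100a9 at 1.203, 0.574, 43.5 and 29.1 CPM. Of 4 listed neutrophil genes with at least 20 UMIs, 3 differed by more than 2-fold between libraries. Their part in the result was not tested.

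Ligands with fewer than 100 UMIs followed both courses. Ccl3 and Ccl4, the macrophage inflammatory proteins, had 99 and 96 UMIs and ratios of 6.77 (2.52 to 25.6) and 9.73 (4.20 to 27.7). Ccl7, a Ccr2 ligand, and Ccl11, an eosinophil chemoattractant (eotaxin), had 94 and 76 UMIs. Ccl7 was at least 8.34-fold higher in library 3 than the floor in library 2, and Ccl11 had a ratio of 17.9 (3.05 to 724). Ccl28 (40 UMIs), Ccl24 (32 UMIs) and Cxcl9 (27 UMIs) were at the limit of this depth, and the intervals of the ratios of Ccl24 and Cxcl9 include 1.

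Receptors were scarce. Cxcr4 (ENSMUSG00000045382), the receptor of Cxcl12 on neural progenitors and leukocytes, was the most abundant at 6.01, 7.08, 10.9 and 10.6 CPM in libraries 1 to 4, with a 1.82-fold difference (1.37 to 2.43) between libraries 3 and 1. Libraries 3 and 4 were the higher ones, with little between them. Ccr1, a receptor of monocytes and neutrophils, was measured at 0, 0.574, 4.07 and 2.62 CPM. Ccr2, the receptor of inflammatory monocytes, lay at 0.150, 0.191, 3.67 and 2.20 CPM, a ratio of 24.4 (6.39 to 208) that rests on 1 to 2 UMIs in each of libraries 1 and 2.

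The remaining receptors were near the limit of detection. Ccr7, the receptor of Ccl19 and Ccl21a on dendritic cells and T cells, had 30 UMIs, at 0.0752, 0, 1.60 and 0.944 CPM in libraries 1 to 4. Cxcr2 had 22 UMIs and Ccr10 had 20, and the intervals of their ratios include 1. Ccr9 had 21 UMIs and a ratio of 9.13 (1.35 to 390). The exons of Ccr9 overlap those of other counted genes on both strands. Cxcr3, the receptor of Cxcl9 and Cxcl10, had 13 UMIs in all, Cxcr6 had 6 and Cxcr5 had 4. The floor of 3 UMIs used for a library at 0 corresponds to 0.225 CPM in library 1, 0.574 in library 2, 0.239 in library 3 and 0.315 in library 4. The exact interval of a count of 0 reaches higher, to 0.706 CPM for Ccr7 in library 2.

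Genes of the wider chemokine system moved less uniformly. Of the chemokines outside the naming pattern, Pf4, a platelet and macrophage chemokine, stood at 2.93, 3.45, 14.0 and 13.5 CPM. The neuronal chemokine Cx3cl1 lay at 297, 329, 358 and 358 CPM, and the microglial receptor Cx3cr1 at 17.8, 14.5, 17.95 and 21.3 CPM. Of 6 further receptors with at least 20 UMIs, 2 differed by more than 2-fold, Ackr2 and Cmklr1. The scavenging receptors Ackr1 and Ackr3 differed little, with ratios of 1.22 (1.03 to 1.43) and 1.13 (0.891 to 1.44). Of 11 genes of receptor signalling, 2 differed by more than 2-fold, both expressed in leukocytes (Rac2 with a ratio of 5.21 and Rgs1 with 43.5).

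Among 10 inflammatory inducers with at least 20 UMIs, 5 differed by more than 2-fold, each highest in library 3: Il1a, Il1b, Irf1, Irf7 and Tlr2. Tlr2, a sensor of microbial and tissue damage products, was measured at 2.10, 1.53, 10.9 and 6.19 CPM. The regulators Nfkb1 and Rela stayed within 1.32-fold and 1.18-fold. Of 9 adhesion and protease genes, 8 differed by more than 2-fold, among them the leukocyte adhesion genes Icam1 (2.56, 4.02, 17.2 and 13.01 CPM) and Vcam1 (14.1, 16.7, 49.3 and 34.1 CPM). All 9 genes of activated phagocytes passed 2-fold, with summed levels of 220, 209, 1176 and 947 CPM, and 3 of 9 microglial genes did, with sums of 395, 385, 822 and 758 CPM. The part of these cell types in the chemokine levels was not tested.

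To place the chemokines in tissue, spots were clustered by their expression of other genes, with all chemokines, receptors and listed genes left out. This gave 11 regions, each called by its leading gene, which stands for no cell type. In the Ces1a region (163 spots of library 3 and 106 of library 4, none of libraries 1 and 2), listed genes of activated phagocytes had a median log2 ratio to the rest of the library of 3.03 in library 3 and 3.58 in library 4. Neutrophil genes had 2.87 and 1.73, nasal epithelium and gland genes 2.67 and 1.64, and olfactory ensheathing glia 2.02 in both. Sensory axon genes (1.87 and 1.33), border macrophage genes (1.71 and 1.60) and leptomeningeal genes (1.56 and 1.83) were also raised there. The Fmod region (134 spots of library 3 and 77 of library 4, with 21 and 18 in libraries 1 and 2) was high in border macrophage genes (2.76 and 2.68) and leptomeningeal genes (2.48 and 2.41). The Trbc2 region (249 and 212 spots of libraries 3 and 4) was high in forebrain excitatory neuron genes (2.68 and 1.86). The Lcn11 region (187 and 43 spots of libraries 1 and 2) was high in nasal gland genes (5.09 and 4.91) and sensory axon genes (4.92 and 5.60), and no less than the Fmod region in border macrophage genes (2.87 and 3.15) and leptomeningeal genes (2.80 and 2.98). The same median over all genes lay between -0.25 and 0.19 in these regions.

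A chemokine or receptor was counted as regional where its level in a region exceeded 2-fold that of the rest of the library, and did so in every library in which the region had 30 or more spots, with 2 or more such libraries. This held for 22 of 33, against 24.9% of all genes with at least 20 UMIs. The Ces1a region accounted for 20 of them (9.76% of all genes), the Fmod region for 7 (5.27%), the Lcn11 region for 3 (4.85%) and the Trbc2 region for 1 (4.3%). The Car9 and Apold1 regions had 2 each (0.937% and 1.77%), and no chemokine passed in the Cacna1h (2.56%), Tbx21 (1.62%), Lmo3 (0.962%), Klhl30 (0.418%) and Cbln4 (0.2%) regions. By kind, 19 of 25 ligands and 3 of 8 receptors (Cxcr4, Ccr1 and Ccr2) were regional. The Ces1a region was found only in libraries 3 and 4, so its contrast with the rest of those libraries says nothing of libraries 1 and 2.

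**Figure D2:**
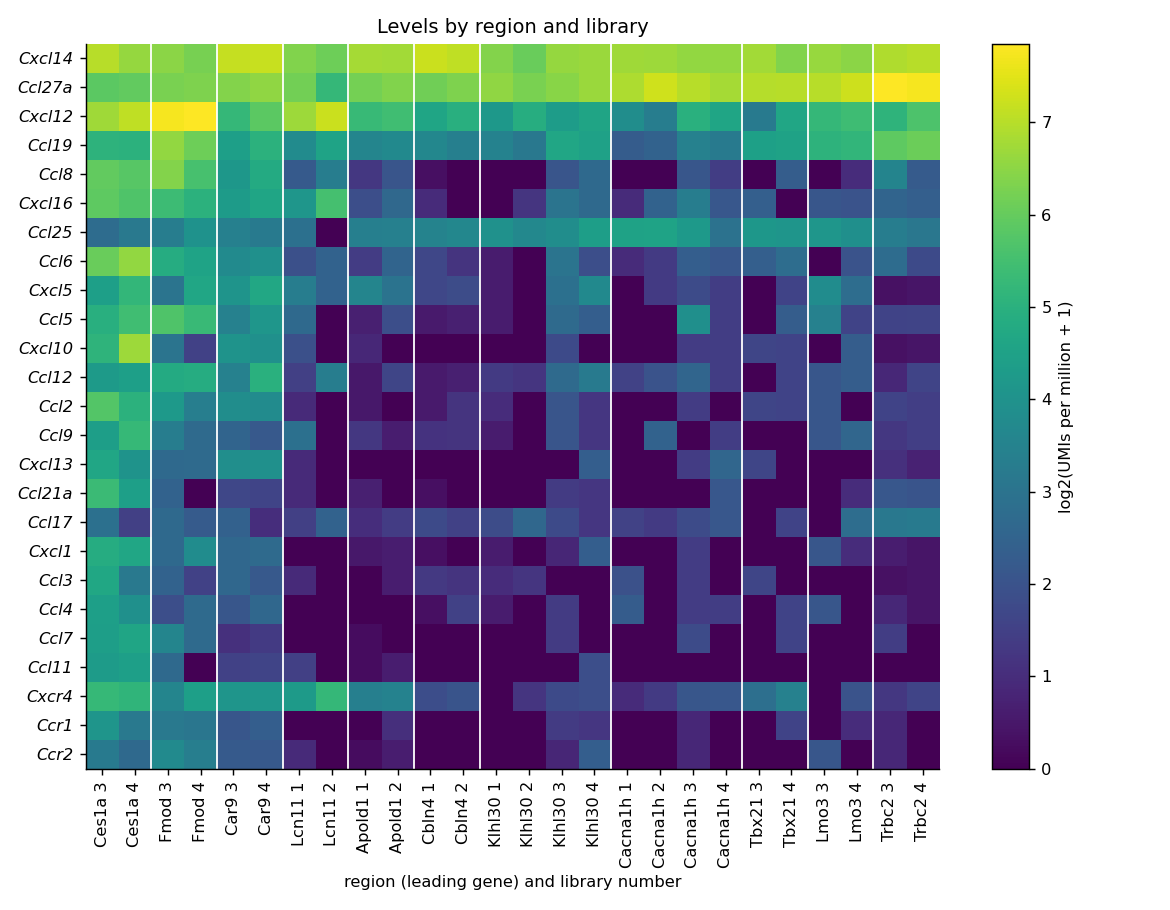
Level of 25 chemokines and receptors in each region of each library with at least 30 spots, as log2(UMIs per 1000000 + 1). Columns are named by the leading gene of the region and the library number. The left columns, the Ces1a region of libraries 3 and 4, are bright for nearly all rows, whereas Cxcl14 and Ccl27a are bright across all columns.

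The Ces1a region carried the inflammatory ligands. Ccl11 stood at 18.8 CPM there and 1.02 CPM in the rest of library 3, and at 20.6 and 0.713 CPM in library 4, ratios of 18.6 (9.12 to 40.8) and 28.9 (11.4 to 86.8). It was the most restricted, with 72.4% of its UMIs in a region that held 6.93% of all UMIs. Ccl6 reached 65.4 CPM in the region against 9.60 CPM in the rest of library 3, and 95.01 against 7.13 CPM in library 4. Ccl2 reached 53.0 against 6.55 CPM and 32.3 against 4.51 CPM, ratios of 8.09 (5.86 to 11.2) and 7.15 (4.40 to 11.6). Ccl7 followed at 20.02 against 2.40 CPM and 23.3 against 0.832 CPM.

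Ccl3 was at 24.7 against 2.12 CPM in library 3 and 8.07 against 1.07 CPM in library 4, and Ccl4 at 20.6 against 1.85 CPM and 14.3 against 1.90 CPM. Cxcl1 stood at 28.3 against 2.40 CPM and 24.2 against 2.73 CPM, ratios of 11.8 (7.16 to 19.8) and 8.86 (4.89 to 16.2). The neutrophil markers S100a8 and Retnlg were raised in the same region, S100a8 at 174 against 22.6 CPM and 75.3 against 21.03 CPM, and Retnlg at 17.1 against 1.11 CPM and 4.48 against 1.90 CPM. Lyz2, a gene of phagocytes, lay at 2296 against 203 CPM and 2438 against 177 CPM. The share of these cell types in the chemokine UMIs was not tested.

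Taken as a sum, the 28 chemokines and receptors other than Cxcl14, Ccl27a, Cxcl12, Ccl19 and Ccl25 stood at 636 CPM in the Ces1a region and 122 CPM in the rest of library 3. Those 5 were left out for their many UMIs outside the phagocyte-rich spots, a choice that favours the Ces1a region in this sum. In library 4 the sum was 668 CPM in the region and 109 CPM in the rest. The region held 45.04% of their UMIs and 13.6% of all UMIs in library 3, and 44.8% and 11.7% in library 4. The Fmod region was the other rich one, at 366 CPM against 174 CPM in library 3 and 310 CPM against 166 CPM in library 4. In libraries 1 and 2 the sum was highest in the Lcn11 region, at 85.7 CPM against 27.1 CPM in library 1 and 131 CPM against 32.0 CPM in library 2. These levels were near those outside the Ces1a region in libraries 3 and 4, and far below those of the Ces1a region. At least 3 of the 28 were seen in 1.60% and 4.65% of Lcn11 spots of libraries 1 and 2.

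Cxcl12 was highest in the Fmod region and was also high in the Lcn11 and Ces1a regions. Meningeal genes were raised in each of these regions. Over all libraries, the Fmod region held 20.9% of Cxcl12 UMIs and 4.71% of all UMIs. The Ces1a region held 16.1% and 6.93%, and the Lcn11 region 7.77% and 3.64%. In the Fmod region Cxcl12 was measured at 213 CPM against 42.2 CPM in the rest of library 3 and at 230 CPM against 55.8 CPM in the rest of library 4, ratios of 5.05 (4.31 to 5.92) and 4.12 (3.35 to 5.02). In the Lcn11 region Cxcl12 stood at 103 against 30.9 CPM in library 1 and 149 against 36.0 CPM in library 2. Its lowest level was 8.39 CPM, in the Tbx21 region of library 3, from 4 UMIs. Ccl5 was also highest in the Fmod region, at 50.4 against 9.89 CPM and 39.2 against 10.3 CPM in libraries 3 and 4. Ccl8 lay at 83.7 against 17.3 CPM and 46.7 against 15.1 CPM in the Fmod region, and at 61.8 against 17.2 CPM and 55.6 against 11.8 CPM in the Ces1a region, so that the order of these regions differed between libraries. In the Apold1 region of libraries 1 and 2, Ccl8 passed 2-fold on 7 and 6 UMIs only, with intervals that include 1.

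Ccr2 passed in the Fmod region, as Ccr1 did, and also in the Ces1a region. In the Fmod region Ccr2 stood at 12.6 against 2.80 CPM in library 3 and 9.34 against 1.78 CPM in library 4, from 14 and 5 UMIs in the region, and in the Ces1a region at 8.24 against 2.95 CPM and 5.38 against 1.78 CPM, from 14 and 6 UMIs. Its ligand Ccl12 stood at 27.0 against 6.65 CPM and 28.0 against 11.2 CPM in the Fmod region. In library 4, Ccl12 was as high in the Car9 region, at 30.6 against 7.39 CPM, whereas in library 3 the Car9 region had 9.96 against 8.04 CPM. Cxcr4 was regional in the Ces1a region (37.1 against 6.83 CPM in library 3, 34.1 against 7.48 CPM in library 4) and in the Lcn11 region (18.2 against 4.91 CPM in library 1, 36.1 against 5.80 CPM in library 2). Ccr1 stood at 15.9 against 2.21 CPM and 8.07 against 1.90 CPM in the Ces1a region.

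Cxcl5 and Cxcl16, like Cxcl12 and Cxcr4, passed 2-fold in some region of every library. Cxcl5 was high in the Apold1 region of libraries 1 and 2 (10.9 against 2.60 CPM and 6.95 against 2.09 CPM), a region high in periglomerular neuron genes. In libraries 3 and 4 it was high in the Car9 region (15.9 against 6.31 CPM and 25.0 against 9.64 CPM) and in the Ces1a region (20.6 against 6.46 CPM and 35.9 against 9.74 CPM). In the Trbc2 region it had 1 UMI in each of libraries 3 and 4. Cxcl16 stood at 16.4 against 2.38 CPM and 45.1 against 3.60 CPM in the Lcn11 region of libraries 1 and 2, and at 58.9 against 12.6 CPM and 50.2 against 10.2 CPM in the Ces1a region of libraries 3 and 4. Cxcl13 passed in the Ces1a region (24.1 against 4.61 CPM and 15.2 against 4.63 CPM) and in the Car9 region (13.6 against 5.50 CPM and 14.3 against 3.70 CPM).

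Ccl27a had the opposite distribution to the inflammatory ligands. It was measured at 228 CPM in the Trbc2 region against 87.9 CPM in the rest of library 3, and at 215 against 99.8 CPM in library 4, ratios of 2.60 (2.35 to 2.87) and 2.15 (1.93 to 2.40). In the Ces1a region it stood at 57.7 against 139 CPM and 61.8 against 144 CPM. A UMI of Ccl27a was seen in 90.4% and 91.0% of Trbc2 spots. Over 26 sums of UMIs per region and library, which share libraries and depth, Ccl27a tracked the neuronal genes Fbxl16, Cacng3, Wasf1, Ppp3r1 and Mast3 most closely, with Pearson's r on log2 CPM between 0.957 (Fbxl16) and 0.929 (Mast3).

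Over the same 26 sums, Cxcl12 was most like Thbd, Colec12, Itih2, Hbb-bs and Timp3 (r from 0.955 to 0.943), a set that includes the red blood cell gene Hbb-bs. Ccl19 was most like Klf6, Ccn3, Cdh11, Lmo4 and Npnt (r from 0.900 to 0.877). It was high both in the Fmod region (93.6 against 33.8 CPM in library 3, 69.1 against 40.1 CPM in library 4) and in the Trbc2 region (59.0 against 31.2 CPM, 66.6 against 31.0 CPM), and passed 2-fold in both libraries in neither. Cxcl14 ranged only from 65.2 CPM in the Klhl30 region of library 2 to 149 CPM in the Cbln4 region of library 1. Its closest gene was Fgfr3, with r = 0.699, followed by Mt3, Actr6, Baalc and Cadm4 down to 0.575.

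In 2 regions with at least 30 spots in every library, the 4 abundant ligands could be set side by side within spots of the same cluster. The make-up of these regions was not equal in the libraries. In the Cacna1h region granule cell genes had median log2 ratios to the rest of 1.44, 1.39, 1.46 and 1.62, and oligodendrocyte genes 1.63, 1.64, 1.40 and 1.04. Forebrain excitatory neuron genes had 1.08, 1.10, -1.28 and -1.53 there and 0.10, -0.34, -1.45 and -2.01 in the Klhl30 region. Their part in the values was not tested. In the Cacna1h region Cxcl12 stood at 13.5, 9.05, 30.4 and 23.7 CPM across libraries 1 to 4. Libraries 3 and 2 differed by a ratio of 3.36 (1.41 to 9.75). Ccl19 there lay at 3.86, 4.52, 9.87 and 8.47 CPM, from 3 to 12 UMIs per library, and the interval of its ratio of 2.56 (0.776 to 10.9) includes 1. Ccl27a was highest in library 2 there, at 118, 154, 127 and 110 CPM, in contrast to its order over all spots. With Ccl25, 3 of 5 ligands with at least 20 UMIs in the region passed 2-fold, against 23.3% of all genes there.

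In the Klhl30 region, 1 of 5 passed, against 21.2% of all genes there. That ligand was Ccl19, at 10.1, 7.83, 23.9 and 21.7 CPM, a ratio of 3.05 (1.25 to 8.98). Cxcl12 was at 17.1, 28.7, 19.1 and 23.0 CPM, a ratio of 1.68 (0.934 to 2.95) within counting error of 1. Ccl27a was at 91.7, 75.7, 86.9 and 100.3 CPM, a ratio of 1.33 (0.927 to 1.90). For Ccl27a the ratio was thus 1.40 (1.01 to 1.94) in the Cacna1h region and 1.33 in the Klhl30 region, against 1.71 over all spots.

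**Figure D3:**
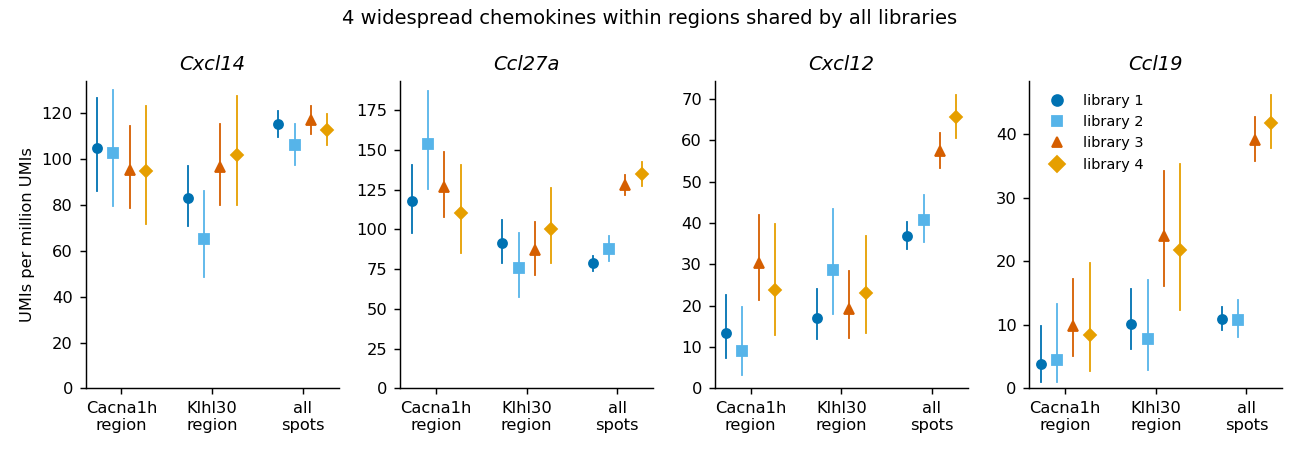
Level of Cxcl14, Ccl27a, Cxcl12 and Ccl19 in the 2 regions with at least 30 spots in every library and in all spots, in UMIs per 1000000 UMIs with 95% exact Poisson intervals. Symbols are libraries. The intervals of Ccl27a overlap between the libraries within both regions, and the values of Ccl19 in libraries 3 and 4 lie above those in libraries 1 and 2 in the Klhl30 region.

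Chemokines and receptors also shared spots. The same 5 members were left out for their many UMIs outside the phagocyte-rich spots, a choice that favours the Ces1a region in these shares. Of the 28 other than the widespread 5, a set that holds Cxcr4, Ccl17 and Ccl28 beside the inflammatory ligands, at least 3 were seen in 68.1% (60.4 to 75.2) of the Ces1a spots of library 3 and 67.0% (57.2 to 75.8) of those of library 4, at medians of 10097 and 9923.5 UMIs per spot. In the Trbc2 region, where neuronal genes prevail, the share was 5.22% (2.81 to 8.76) and 1.42% (0.293 to 4.08) at higher medians of 13290 and 13641.5 UMIs. In the Fmod region it was 35.1% and 23.4%, and in the Car9 region 21.4% and 35.1%. With each spot thinned to 2000 UMIs, the Ces1a region had 12.9% and 10.4% and the Trbc2 region 0% in both libraries. The most crowded spot, in the Ces1a region of library 3, held 17 of the 28.

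**Figure D4:**
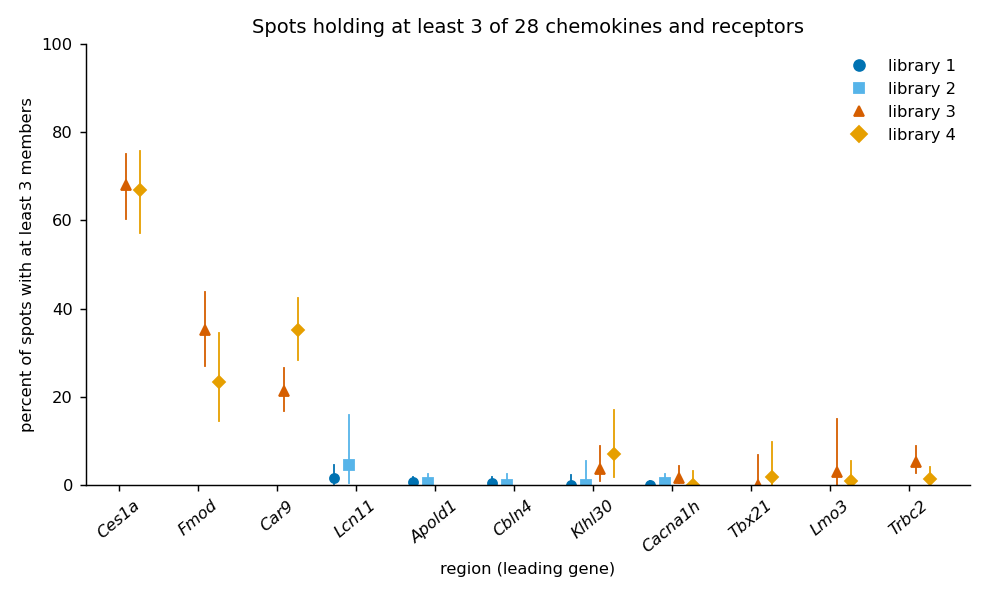
Percent of spots with UMIs of at least 3 of 28 chemokines and receptors (without Cxcl14, Ccl27a, Cxcl12, Ccl19 and Ccl25), by region and library, with 95% exact binomial intervals. Symbols are libraries, and only regions with at least 30 spots in a library are drawn. The Ces1a region lies at 68.1% and 67.0%, above every other region.

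Single genes showed the same contrast. A UMI of Ccl6 was found in 38.7% and 42.5% of Ces1a spots against 8.03% and 3.30% of Trbc2 spots in libraries 3 and 4. For Cxcl10 the shares were 19.02% and 15.1% of Ces1a spots against 0.402% and 0.472% of Trbc2 spots. Free RNA can give a UMI in any spot, and its part was not estimated. The Trbc2 region, though deeper, is 1 tissue region with low shares and not a measure of free RNA. Of all Cxcl10 UMIs, the Ces1a region held 62.4% and the Car9 region 25.5%.

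How tightly the transcripts were packed differed by gene. Cxcl10 had 274 UMIs in 112 spots, and 9 spots held 50% of its UMIs. A single spot of the Ces1a region in library 4 held 63 UMIs of Cxcl10, 42.0% of those in its library, together with 6 of Ccl5 and 5 of its relative Cxcl9. Without that spot, library 4 stood at 9.14 CPM, level with the 9.18 CPM of library 3, and the highest library was at least 15.9-fold above the floor of library 2. Ccl21a had 50% of its 141 UMIs in 10 spots. Its richest spot, in the Ces1a region of library 3, held 34 UMIs, 36.6% of its library, without which the ratio was at least 8.197.

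Ccl3 and Ccl4, which lie near each other on chromosome 11, had their richest spot in common, with 14 and 13 UMIs in a spot crowded with other chemokines, among them Cxcl13 with 4 UMIs. The richest spot of Ccl5 held 23 UMIs, with 44 spots holding 50% of its UMIs. In contrast, 50% of the UMIs were spread over 77 spots for Ccl8, 83 for Ccl6, 356 for Cxcl12 and 663 for Cxcl14.

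**Figure D5:**
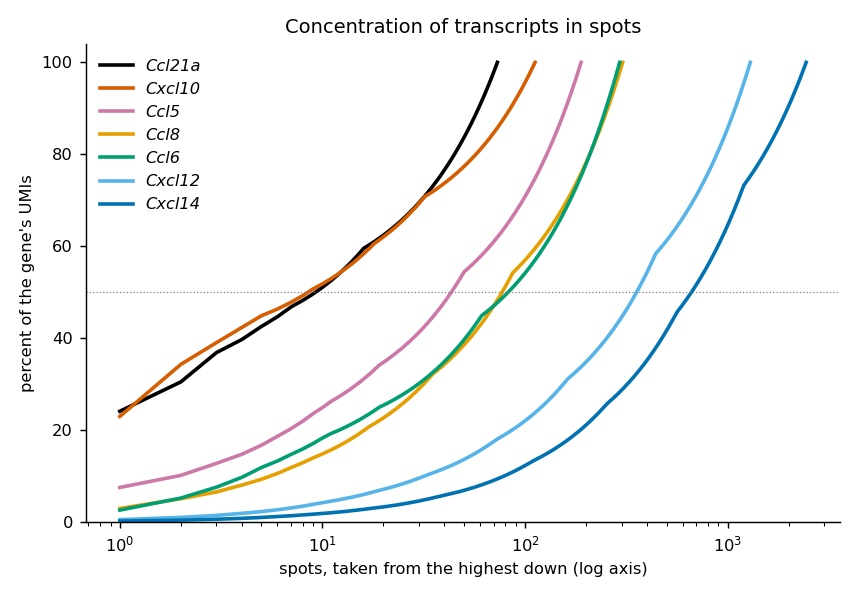
Cumulative percent of the UMIs of 7 chemokines against the number of spots, taken from the highest spot down on a log axis. The dotted line marks 50%, which Cxcl10 reaches in 9 spots, Ccl21a in 10 and Cxcl14 in 663.

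Spots with Cxcl10 were also rich in the listed inflammatory inducers, a list not specific to Cxcl10. In library 3, spots with a Cxcl10 UMI had all 10 inflammatory inducers at a higher level than spots without, with a median log2 ratio of 1.23, and in library 4 all 10 with a median of 1.41. The whole Ces1a region, which held 62.4% of Cxcl10 UMIs, had medians of 1.43 and 1.64 for this list against the rest of libraries 3 and 4. The part of that region in the contrast was not tested. Of all genes, 49.8% were higher in that contrast in library 3 and 56% in library 4, with medians of -0.00303 and 0.10. Activated phagocyte genes had medians of 1.96 and 2.16 in the same contrast, at median depths of 11493 against 8861 UMIs in library 3 and 12095 against 9698.5 UMIs in library 4. Spots with Ccl21a in library 3 differed: phagocyte genes had a median of -0.13 and neutrophil genes 2.75, with nasal gland genes at 2.68. These lists share spots and regions with each other, and their part in the chemokine levels was not tested.

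The 250 bases before the transcription start of Cxcl10 and Cxcl14, the most concentrated and the most even of the abundant ligands, are shown from RefSeq promoters of the GRCm38.p6 build on the minus strand, Cxcl10 at chr5:92348890-92349139 and Cxcl14 at chr13:56296552-56296801. Capitals mark matches, on either strand, to GGNNNTTCC, a core of NF-kB motifs, and to AANNGAAA, the core motif of interferon regulatory factors. No matches overlap in these windows.
Cxcl10: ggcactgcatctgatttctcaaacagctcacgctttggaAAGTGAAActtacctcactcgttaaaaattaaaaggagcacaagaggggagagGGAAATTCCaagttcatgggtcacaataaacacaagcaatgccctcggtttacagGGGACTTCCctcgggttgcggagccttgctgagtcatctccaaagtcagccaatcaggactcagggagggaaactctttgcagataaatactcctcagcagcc
Cxcl14: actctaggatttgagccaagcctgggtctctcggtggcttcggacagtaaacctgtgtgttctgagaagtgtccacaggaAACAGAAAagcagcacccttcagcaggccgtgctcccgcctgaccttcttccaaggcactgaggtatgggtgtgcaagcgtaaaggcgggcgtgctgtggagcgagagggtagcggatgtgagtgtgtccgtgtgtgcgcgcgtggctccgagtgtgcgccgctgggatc
The Cxcl10 window held 2 matches to the NF-kB core and 1 to the interferon regulatory core, and the Cxcl14 window held 0 and 1. Of 32851 promoters of the same length, 15.7% held the NF-kB core and 21.3% the interferon regulatory core. Of the 33 chemokines and receptors with at least 20 UMIs, 22 had a promoter among these, and they had 25 promoters in all. Of these 25 promoters, 7 held the NF-kB core and 8 the other core, and those of Ccl19, Ccl21a and Cxcl10 held both. A match is a description of letters and not a site of binding.

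Ligands and receptors were compared within spots for 20 known pairs. Cxcr4 stood at 13.9 CPM in spots with a UMI of Cxcl12 and 9.24 CPM in spots without in library 3, a ratio of 1.505 (1.06 to 2.13). In library 4 it was 16.0 against 6.57 CPM, a ratio of 2.44 (1.60 to 3.78). In libraries 1 and 2 the ratios were 1.49 (0.911 to 2.40) and 1.98 (0.956 to 3.995), of the same direction but with intervals that include 1. For Ackr3 with Cxcl12, libraries 1 and 2 had 1.55 (1.10 to 2.16) and 1.52 (0.865 to 2.61). Libraries 3 and 4 had 1.10 (0.780 to 1.55) and 1.29 (0.900 to 1.85). For Cx3cr1 with Cx3cl1 the ratios were 1.13, 0.653, 0.660 and 0.808, with intervals that include 1. For Ccr2 with Ccl2, libraries 3 and 4 had 2.07 (0.836 to 4.51) and 3.14 (0.768 to 9.62). The intervals of Ccr2 with Ccl7 and Ccl12 also include 1.

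For Ccr1, spots of library 3 with its ligand Ccl3 stood at 23.9 CPM against 3.31 CPM without, a ratio of 7.23 (3.34 to 14.3) from 11 receptor UMIs in 41 spots. The Ces1a region held 51.5% of Ccl3 UMIs and 45.6% of Ccr1 UMIs, and the part of this shared region in the ratio was not tested. With Ccl6 the ratio was 2.81 (1.45 to 5.22) and with Ccl9 3.39 (1.38 to 7.30) in library 3. In library 4 the ratios were 1.96 (0.574 to 5.37) with Ccl6 and 2.16 (0.414 to 7.20) with Ccl9, whose intervals include 1. Ccr7 was not seen in any of the 40 and 29 spots with Ccl21a in libraries 3 and 4, nor Cxcr2 in any spot with Cxcl1 or Cxcl5 in these libraries. With 20 and 9 UMIs of Ccr7 and 5 and 5 of Cxcr2 in libraries 3 and 4, the intervals of these ratios of 0 include 1. Ccr7 did share spots with its other ligand Ccl19, 8 in library 3 and 4 in library 4. The ratios were 1.22 (0.431 to 3.23) and 3.29 (0.703 to 20.3), with intervals that include 1.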

How the data were processed

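The authors deposited 1 matrix of raw UMI counts, 1 row per gene and 1 column per spot, that pools all capture areas. Per the file headers it was written by Space Ranger 1.3.1. The submitters' processing notes name the build GRCm39. Annotation and strand setting were not given in the sources used here. Counting UMIs sets PCR copies aside.

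Libraries were taken from the number at the end of each barcode, which matches no label, so that the planned values per genotype were not computed. Spots under 500 UMIs (97 spots with 11 chemokine and receptor UMIs) were set aside. Levels are UMIs summed over spots per 1000000 UMIs (CPM), with exact Poisson intervals. Ratios have exact intervals from the binomial split of both counts, and shares have Clopper-Pearson intervals. A library or region at 0 was set to a floor of 3 UMIs for ratios.

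Regions came from Leiden clustering (leidenalg 0.10.2, resolution 0.8) on 30 principal components of 2000 variable genes after scaling to 10000 UMIs per spot, with 15 neighbours, without the chemokines, receptors, listed genes and mitochondrial, ribosomal protein and haemoglobin genes. A region ratio was counted only with more than 3 UMIs in the region. List medians used a prior of 0.5 UMIs and genes with at least 20 UMIs. Thinning to 2000 UMIs removed spots of lower depth (233, 89, 42 and 20 in libraries 1 to 4). No positions or images were used, and no doublet caller was run. Analyses ran in Python 3.11 with numpy 2.4.6, scipy 1.17.1, pandas 2.3.3 and scikit-learn 1.9.0, and were tested on simulated data.

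Values were given in full for the 12 members with most UMIs, the 6 with the widest ratio among those with at least 100 UMIs and receptors with at least 100 UMIs, and in part for others with at least 20. Non-members came from the 27 lists and from the 5 genes most alike each member with at least 1000 UMIs, among genes with at least 500. The values of some genes that enter the counts are not reported here. Single spots and pairs within spots were described after their values were seen. The promoter motif cores replaced longer forms of both motifs, which had been searched first and matched the Cxcl10 window too. The members, lists and tests were chosen with earlier results of these data known. Alternatives covered the spot filter, the total used for scaling, size factors, the UMI minimum, region weights, the clustering and each library left out. GENCODE M21 (GRCm38) and RefSeq promoters (GRCm38.p6) served for names, coding sequence and promoters, and all 59 rows were found in that annotation.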

Additional observations from a re-analysis of the deposited data

How the results depend on the processing

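No library had a replicate, so counting error is the only error known. The count of 27 chemokines and receptors over 2-fold between libraries was 27 without the spot filter, with spots of at least 1000 UMIs, with another total and with size factors, and 25 with each region weighted alike. Requiring at least 1 UMI in each library gave 23, and at least 100 UMIs gave 15 of 20. Leaving out each library in turn gave 25 to 27. The count of 22 over 2-fold in 1 region lay between 15 (of 20, at least 100 UMIs) and 24 under the other planned settings. Leaving out each library gave 5 to 22, with 5 without library 3 and 5 without library 4, since the Ces1a, Fmod, Car9 and Trbc2 regions then had at least 30 spots in only 1 library. Leaving out the richest spot of each gene, chosen after seeing the data, gave 26 and 22. Of 132 ratios of highest to lowest library with a library left out, 11 moved beyond their intervals. The highest and lowest library were picked anew each time, so that whether a ratio would turn round was not tested. The ratio of Ccr7 was at least 2.78-fold and, without library 3, at least 1.64-fold. Scalings shifted all genes by at most 0.03 log2 units. Thinning to 2000 UMIs lowered 110 of 132 shares of spots beyond their intervals. No paired analysis was possible because the library numbers match no sample label and carry no replicate number. Genes under about 20 UMIs are beyond this depth.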

Other observations

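Of the 33 chemokines and receptors with at least 20 UMIs, 27 were higher in each of libraries 3 and 4 than in each of libraries 1 and 2, against 38.1% of all genes with at least 20 UMIs. Among those with at least 100 UMIs it was 18 of 20, against 37.6% of all genes, the exceptions being Cxcl14 and Ccl25. This pattern was noticed in the data, and no label says which libraries share a mouse. Summed over all rows but Cxcl14, Ccl27a, Cxcl12, Ccl19 and Ccl25, libraries 3 and 4 reached 194 CPM (186 to 202) and 177 CPM (168 to 185), and libraries 1 and 2 reached 33.0 CPM (29.98 to 36.2) and 37.1 CPM (32.1 to 42.7).

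Cxcl9 had 27 UMIs in 13 spots, and 3 spots held 50% of them. One of these was a spot of the Lcn11 region in library 1, with 5 of the 7 UMIs of its library and 2 UMIs of Ccl5. Another, in the Ces1a region of library 4, was the spot with 63 UMIs of Cxcl10.

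Ccl17, a ligand of Ccr4 found on T cells, reached 5.11 and 4.20 CPM in libraries 3 and 4 and 1.80 and 2.30 CPM in libraries 1 and 2, with library 3 at 2.83-fold (1.75 to 4.73) the level of library 1. It stood at 7.86 CPM in the Trbc2 region against 4.01 CPM in the rest of library 3, and at 8.33 against 2.41 CPM in library 4, unlike the inflammatory ligands. Its richest spots held 2 UMIs, and 93.1% of its 131 spots held 1. Ccl24, an eotaxin, had 6 and 3 UMIs in the Fmod region of libraries 3 and 4, with ratios of 8.81 (2.45 to 30.6) and 16.8 (2.25 to 125) to the rest. Ccl22, the other Ccr4 ligand, had 18 UMIs, 13 of them in library 3.

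Cxcl5 and Cxcl12 coincided with Ccl21a in its richest spots. The spot with 34 UMIs of Ccl21a in library 3 also held 8 UMIs of Cxcl12 and 6 of Cxcl5, the most of Cxcl5 in any spot. The richest spot of Cxcl12, in the Ces1a region of library 4, held 11 UMIs of it, 9 of Ccl21a and 6 of Cxcl5.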
